A study of Mus musculus with 5 samples.

Results

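The proteasome is the barrel-shaped protease that degrades most ubiquitin-tagged proteins in the cytosol and nucleus. Its 20S core is built of stacked rings of alpha and beta subunits, and 3 of the beta subunits carry the active sites. The 19S regulatory particle caps the barrel. It recognises ubiquitin chains, unfolds substrates with a ring of ATPases and feeds them into the core, while smaller activator complexes open the core without ubiquitin. Because each particle needs fixed numbers of every subunit, proteasome genes are known for moving together, and the transcription factor NRF1, encoded by Nfe2l1, raises them when proteasome capacity falls short.

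Transcripts of 36 mouse proteasome subunit genes were examined in ID8 cells, a line derived from mouse ovarian surface epithelium that forms peritoneal tumours with ascites. The genes were chosen by name and structural class rather than by a cut on their values, but with earlier results of these data known. A gene counted as measured where an array probe set was annotated to it alone, and its brightest such probe set on average was used. This left 35 of the 36 genes, among 12393 genes in all. They comprised 7 alpha and 7 beta subunits of the core, 6 ATPases and 12 non-ATPase subunits of the 19S particle, and 3 activators. Psme2 was left out because its single probe set was annotated to Psme2b as well. That probe set read 11.51 and 11.29 in ascites, against 11.52, 11.55 and 11.50 in FBS, a difference of -0.12.

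Cells of the ascites group were grown in DMEM with 10% ascites fluid from ID8-bearing mice, for 7 days according to the series design (2 arrays, replicates 2 and 3). Cells of the FBS group had 10% fetal bovine serum (FBS) in the same medium (3 arrays, replicates 1, 2 and 3). The labels name no allele or other agent for either group, and they do not say whether arrays came from separate cultures or whether ascites was pooled over mice. The p-values therefore reflect the spread among 5 arrays, part of which may be technical. All values are log2 array signals. A change is the ascites mean minus the FBS mean, given with its standard error (SE), and adjusted p-values are limma's over all 12393 genes with a threshold of 0.05. Whole cultures were measured, so fewer cells of a type and less RNA per cell cannot be told apart.

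Replicates were unequally alike. Over all genes the SD of the difference was 0.117 between FBS replicates 1 and 2, 0.427 between either of these and FBS replicate 3, and 0.239 between the 2 ascites arrays. The ovarian surface markers Krt8, Krt18, Krt19, Wt1, Msln and Upk3b had signals between 10.83 and 14.63 on every array. Krt18 fell 2.70-fold (adjusted p = 0.0361) and Krt19 1.84-fold (adjusted p = 0.0428) in ascites, and the median change of the 7 measured surface markers was -1.43. Of these 7, 6 had a lower mean in ascites. Msln had a higher one, with 12.30 and 12.72 in ascites, against 12.45, 12.51 and 11.46 in FBS (change 0.37, SE 0.39, adjusted p = 0.623). Upk1b and Lrrn4, also listed, were not measured. Krt7 read 5.37 and 5.12 in ascites and 5.66 on FBS replicate 3, against 8.0 and 8.08 on the other FBS arrays. Of 29 measured markers of macrophages, lymphocytes, neutrophils, erythroid and endothelial cells, 0 passed limma's threshold and 1, Cd3d, had an unadjusted p below 0.05. The largest differences among the 29 were those of the macrophage markers Cd68 (0.52, SE 0.48, adjusted p = 0.573) and Cd14 (0.38, SE 0.42, adjusted p = 0.642). FBS replicate 3 was the lowest array for Cd68 and the highest for Cd14. Of the 10 macrophage markers, 6 had a higher and 4 a lower mean in ascites. By list, the markers with the smallest p were Itgam (change -0.15), Cd3d (0.18), S100a9 (-0.17), Hba-a1 (0.06) and Tek (0.18), and the list medians ran from -0.01 to 0.05. Their signals ran from 3.34 to 7.74, below every signal of the chosen proteasome probe sets, which ran from 9.38 to 13.26.

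Of the 35 proteasome subunit transcripts, 1 passed the test between ascites and FBS. Psmd8, a lid subunit of the 19S particle, rose 1.66-fold in ascites. Among the others, Psmb3, Psmb5, Psmd14, Psmc6 and Psme3 had the larger positive differences, from 0.39 to 0.64, and Psme1 and Psmd3 the larger negative ones, -0.43 and -0.23. In all, 27 genes had a higher mean and 8 a lower mean in ascites, and the median change was 0.14 (1.10-fold), against 0.00 over all genes.

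The count of 1 risen gene of 35 is near the background, since 5.28% of all genes passed in either direction and 2.69% passed upward. Downward, 0 passed by limma, where 2.59% of all genes did. At an unadjusted p below 0.05, 8 genes were higher and 1 was lower, and 11.7% and 12.5% of all genes were. The ascites arrays lay wholly above the FBS arrays for 9 genes and wholly below them for 1, where 18.6% and 19.4% of all genes did so. A higher mean in ascites was found for 77.1% of the subunit genes and for 49.7% of all genes. The interval of the change excluded a 2-fold difference in either direction for 31 of the 35 genes (88.6%), at 95% confidence, and for 81.4% of all genes. It reached 2-fold for Psmb3, Psmd8, Psme1 and Psme3.

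These counts depended on FBS replicate 3. It lay above both other FBS arrays for 29 of the 35 genes (82.9%), where it did for 41.7% of all genes, and the median gap to their mean was 0.34. The ascites mean exceeded FBS replicate 3 for 14 of the 35 genes, where it did for 45.6% of all genes, and the median difference from that array was -0.04. Without FBS replicate 3, 32 genes were higher and 3 lower in ascites, the median change was 0.25, and 10 genes rose. Without it, 20.1% of all genes passed, 9.17% upward and 10.9% downward. The 10 genes were Psma6, Psmb3, Psmb4, Psmb5, Psmb7, Psmd2, Psmd8, Psmd11, Psmd14 and Psme3, and again 0 fell. The spread in FBS then rests on replicates 1 and 2 alone, which were nearly alike, so p-values without that array may be too small. FBS replicate 3 also lay below the other FBS arrays on all 7 surface markers, by a median of -0.91, and the part of this in the subunit values was not tested. Without FBS replicate 1, without FBS replicate 2, without ascites replicate 2 or without ascites replicate 3, 0 of the 35 genes and 0 of all genes passed, and between 2 and 5 of the 35 were higher at an unadjusted p below 0.05. In these fits 2016 to 2748 of all 12393 genes had such a p in either direction, and 1 of the 35 was lower in each fit without an ascites array.

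**Figure D1:**
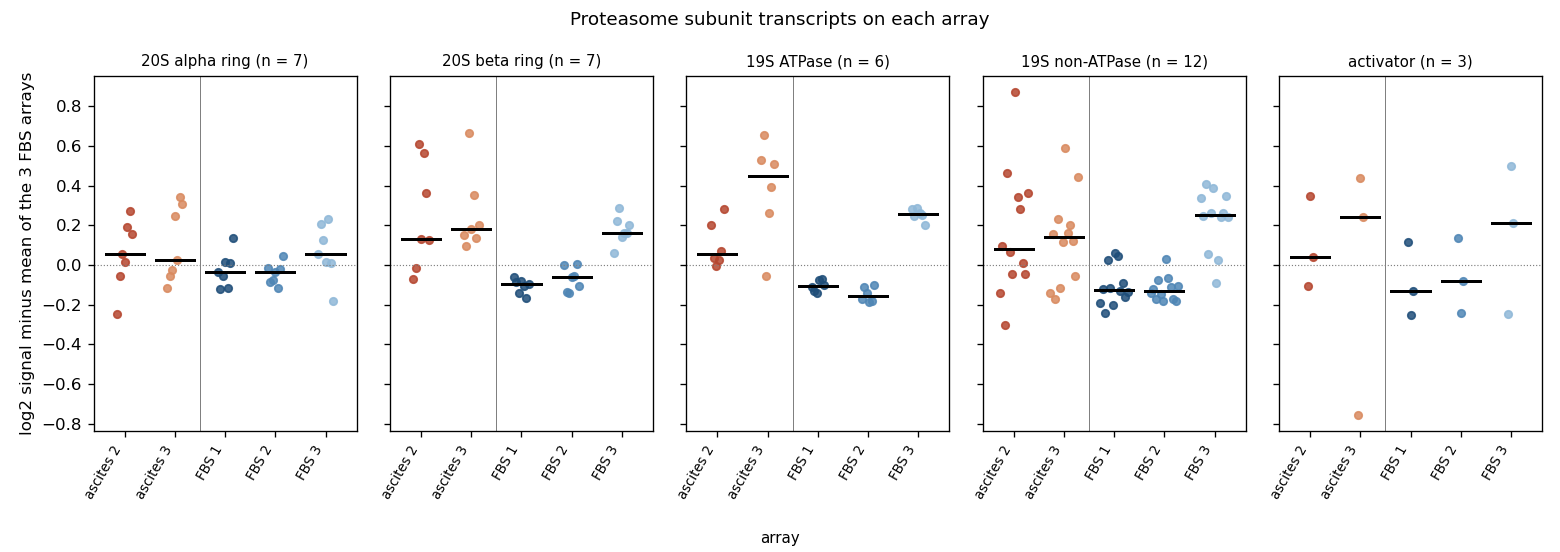
Log2 signal of each subunit transcript minus its mean over the 3 FBS arrays (y axis) on each of the 5 arrays (x axis), in 5 structural classes, with 1 point per gene and a black bar at the class median. FBS replicate 3 stands above FBS replicates 1 and 2 in all 5 classes and lies near the ascites arrays, with medians over all 35 genes of 0.07 and 0.18 on the ascites arrays and 0.22 on FBS replicate 3.

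Promoters are shown for Psmd8, which passed the threshold, and for Psmb3 and Psmb5, which had the 2 largest changes among the core subunits. Each runs from 250 bases before the gene's start to 50 after it, 5′ to 3′ on the gene's strand, and comes from RefSeq on build GRCm38.p6. Psmd8 lies at chr7:29180624-29180923 on the minus strand, Psmb3 at chr11:97703184-97703483 on the plus strand and Psmb5 at chr14:54617946-54618245 on the minus strand. Capitals mark the letters TGACNNNGC, the core of the antioxidant response element that NRF1 and NRF2 bind, or CCAAT, the box bound by NF-Y, on either strand. These letters do not overlap each other in the windows shown.
Psmd8: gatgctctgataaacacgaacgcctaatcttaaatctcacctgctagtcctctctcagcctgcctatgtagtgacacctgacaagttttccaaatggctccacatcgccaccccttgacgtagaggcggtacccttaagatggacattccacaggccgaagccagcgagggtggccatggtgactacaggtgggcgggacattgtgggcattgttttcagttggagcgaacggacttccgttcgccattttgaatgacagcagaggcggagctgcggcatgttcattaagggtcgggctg
Psmb3: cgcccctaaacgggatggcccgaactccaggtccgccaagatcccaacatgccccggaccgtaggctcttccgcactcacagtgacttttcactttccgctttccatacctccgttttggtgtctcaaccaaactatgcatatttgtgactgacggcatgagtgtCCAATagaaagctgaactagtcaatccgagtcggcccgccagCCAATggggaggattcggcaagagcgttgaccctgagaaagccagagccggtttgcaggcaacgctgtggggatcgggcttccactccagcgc
Psmb5: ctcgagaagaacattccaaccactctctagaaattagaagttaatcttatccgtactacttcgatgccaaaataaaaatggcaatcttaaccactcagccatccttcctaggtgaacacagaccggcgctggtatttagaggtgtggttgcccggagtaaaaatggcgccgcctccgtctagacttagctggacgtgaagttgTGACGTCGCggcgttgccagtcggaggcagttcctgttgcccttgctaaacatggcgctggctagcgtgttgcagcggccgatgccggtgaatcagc
Psmb5 holds 1 antioxidant response element core, whose first base lies 47 bases before the gene's start. Psmb3 holds 2 CCAAT boxes, starting 85 and 43 bases before it, and the Psmd8 window holds neither set of letters.

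Promoters of this kind were found for 29 of the 35 genes. They have 31 promoters in the table, since a gene can have more than 1 start. The antioxidant response element core stood in 5 of them (16.1%), those of Psmb5, Psmb6, Psmc6, Psmd12 and Psme4, in 13.8% of the promoters of array genes and in 12.4% of all promoters. Counted by gene, the shares were 17.2% of the subunit genes and 16.3% of the array genes. All 5 had a higher mean in ascites, with a median change of 0.25, against 18 of 24 and a median of 0.19 for the genes whose window lacks it. The CCAAT box stood in 12 of the 31 promoters (38.7%), each of a different gene, in 37.1% of the promoters of array genes and in 37.4% of all promoters. Of these 12 genes 10 had a higher mean in ascites, with a median change of 0.33, against 13 of the other 17, with a median of 0.14. Psma6 is counted among the 12 although its other promoter lacks the box. The same split over all array genes is not given here, and a link between either motif and the change was not tested.

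The alpha subunits form the outer rings of the core and its gate. Their median change was the least but for the non-ATPase subunits, at 0.11, and 0 of 7 passed by limma, with 1 higher and 1 lower at an unadjusted p below 0.05. Psma6 read 12.76 and 12.83 in ascites, against 12.50, 12.47 and 12.50 in FBS. Both ascites arrays lay above all FBS arrays, and the FBS arrays were nearly equal. The change was 0.31 (SE 0.05, adjusted p = 0.0536), just short of the threshold, and a second bright probe set of Psma6 differed by 0.34. It passed without FBS replicate 3 (0.31, adjusted p = 0.0339).

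Psma1 was the sole transcript among the 35 that lay below all FBS arrays on both ascites arrays. It read 11.80 and 11.93 in ascites, against 12.01, 12.03 and 12.10 in FBS (change -0.18, SE 0.07, adjusted p = 0.206). Psma7 read 12.09 and 12.24 in ascites, against 12.07, 11.98 and 11.75 in FBS, so its groups did not overlap either, but by only 0.02. For Psma7, FBS replicate 3 was the lowest array, unlike most subunits. Psma2, Psma3, Psma4 and Psma5 differed by -0.05 to 0.13, and their arrays overlapped between the groups.

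The beta subunits form the inner rings, where proteolysis takes place. All 7 had a higher mean in ascites, with a median change of 0.16, and 0 of 7 passed by limma, with 2 higher at an unadjusted p below 0.05. Psmb3, a subunit without an active site, read 12.84 and 12.90 in ascites, against 12.09, 12.09 and 12.52 in FBS. The groups did not overlap, with FBS replicate 3 about midway. The change was 0.64 (1.56-fold, SE 0.16, adjusted p = 0.106), and its second probe set differed by 0.57.

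The active sites lie in Psmb5 (chymotrypsin-like), Psmb6 (caspase-like) and Psmb7 (trypsin-like). Psmb5 read 12.85 and 12.64 in ascites, against 12.18, 12.23 and 12.45 in FBS (1.37-fold, change 0.46, SE 0.12, adjusted p = 0.111). Both ascites arrays lay above all FBS arrays.

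Psmb6 read 12.33 and 12.10 in ascites, against 11.80, 11.97 and 12.13 in FBS (change 0.25, SE 0.13, adjusted p = 0.361). Psmb7 read 12.49 and 12.57 in ascites, against 12.27, 12.26 and 12.57 in FBS (change 0.16, SE 0.12, adjusted p = 0.486). In both genes FBS replicate 3 reached into the ascites range. Psmb1, Psmb2 and Psmb4 differed by 0.04, 0.04 and 0.15, and Psmb4 and Psmb7 joined Psmb3 and Psmb5 past the threshold without FBS replicate 3.

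Immune cells and cells exposed to interferon replace these active subunits with Psmb8, Psmb9 and Psmb10. Psmb8, the counterpart of Psmb5, read 5.57 and 5.23 in ascites, against 5.23, 5.23 and 5.09 in FBS (change 0.22, adjusted p = 0.393). Psmb9, the counterpart of Psmb6, read 5.88 and 5.77 in ascites, against 5.77 on each FBS array (change 0.06, adjusted p = 0.613). Both stayed within the signal range of the markers of other cell types in both media.

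Psmb10, the counterpart of Psmb7, was brighter, at 9.14 and 9.15 in ascites, against 9.25, 9.30 and 9.77 in FBS. Both ascites arrays lay below all FBS arrays, and the change was -0.29 (SE 0.18, adjusted p = 0.421). The testis subunit gene Psma8 stayed between 3.83 and 4.33 on all arrays, and Psmb11 was not analysed here. Of these 4 measured genes, 0 passed by limma or at an unadjusted p below 0.05, and their median change was 0.06.

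**Figure D2:**
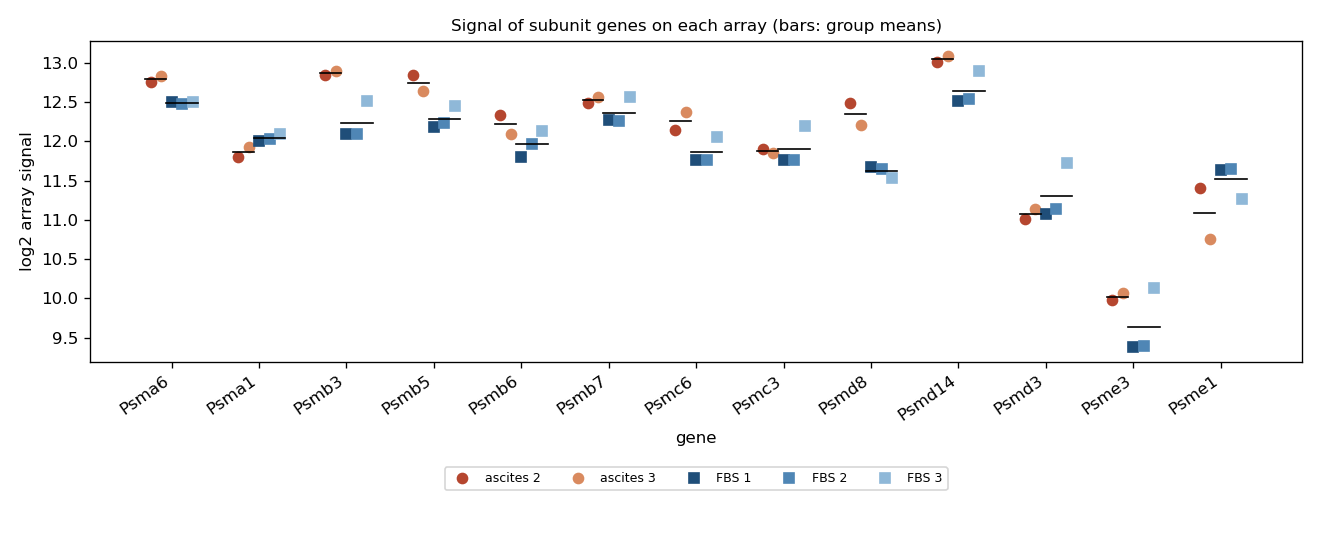
Log2 array signal (y axis) of 13 subunit genes (x axis) on the 2 ascites arrays (circles) and the 3 FBS arrays (squares), with bars at the group means. Psmd8 shows both ascites arrays (12.49 and 12.21) above FBS arrays between 11.53 and 11.68, while for Psmc3, Psmd3 and Psme3 the highest array is FBS replicate 3.

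The 6 ATPases form the unfolding ring at the base of the 19S particle. They had the highest median change of the 5 classes, 0.29, and 5 of 6 had a higher mean in ascites, but 0 passed by limma and 1 was higher at an unadjusted p below 0.05. FBS replicate 3 lay above the mean of the other FBS arrays by 0.30 to 0.43 for all 6, a narrow range. Psmc6 read 12.14 and 12.37 in ascites, against 11.76, 11.76 and 12.06 in FBS, without overlap (change 0.40, SE 0.14, adjusted p = 0.183).

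A second Psmc6 probe set, annotated to that gene alone, read 10.60 and 10.61 in ascites, against 9.63, 9.59 and 9.81 in FBS. Its change of 0.93 (SE 0.09) had an adjusted p of 0.024, a setting chosen after seeing the data, when all 20380 such probe sets were fitted by limma, where 4.67% passed. It was 0.00977 without FBS replicate 3 and between 0.113 and 0.154 without any other single array. Another, dimmer one differed by 0.99 (adjusted p = 0.0725). The probe sets of Psmc6 thus agree in direction and differ in size.

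Psmc3 had the sole lower mean among the ATPases, with 11.90 and 11.85 in ascites, against 11.76, 11.76 and 12.19 in FBS (change -0.03, SE 0.16, adjusted p = 0.939). Both ascites arrays lay above FBS replicates 1 and 2 and below FBS replicate 3. Psmc2 was the ATPase that varied most between ascites arrays, with 12.59 and 13.21, against 12.42, 12.44 and 12.80 in FBS (change 0.35, adjusted p = 0.456). The class median depended on which ascites array was used, at 0.05 without ascites replicate 3 and 0.45 without ascites replicate 2. Without ascites replicate 3 it lay below the medians of the beta (0.13), non-ATPase (0.08) and alpha (0.06) classes. Psmc1, Psmc4 and Psmc5 differed by 0.37, 0.14 and 0.23, with overlapping arrays.

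The 12 measured non-ATPase genes encode the ubiquitin receptors, the scaffold and the lid of the 19S particle, together with the base chaperone Psmd10. Their median change was 0.10, with 8 higher and 4 lower, 1 past the threshold and 4 higher at an unadjusted p below 0.05. Leaving out single arrays moved this median between 0.02 and 0.24, the highest without FBS replicate 3, where 11 genes were higher and 1 lower. Psmd8 read 12.49 and 12.21 in ascites, against 11.68, 11.65 and 11.53 in FBS. The groups were 0.53 apart at their nearest arrays, and FBS replicate 3 was the lowest. The change was 0.73 (SE 0.11, 95% interval 0.43 to 1.03, adjusted p = 0.0442). An exact two-sided permutation test gave p = 0.1, the smallest that 3 against 2 arrays allow. The adjusted p was 0.0451 without FBS replicate 3 and between 0.113 and 0.205 without any other single array.

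Psmd14, the deubiquitinase that removes ubiquitin chains from substrates, read 13.01 and 13.09 in ascites, against 12.51, 12.54 and 12.89 in FBS (change 0.40, SE 0.14, adjusted p = 0.186). Psmd4, a ubiquitin receptor, read 12.38 and 12.15 in ascites, against 11.94, 11.84 and 11.97 in FBS (change 0.35, SE 0.09, adjusted p = 0.118). Psmd10, gankyrin, which assists assembly of the base, read 10.34 and 10.16 in ascites, against 10.04, 9.93 and 10.02 in FBS (change 0.25, SE 0.08, adjusted p = 0.157). None of these 3 genes overlapped between groups, and none passed.

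The scaffold genes of the base showed no such separation. Psmd1 read 11.42 and 11.42 in ascites, against 11.37, 11.42 and 11.90 in FBS (change -0.14, adjusted p = 0.689). Psmd2 read 12.11 and 12.17 in ascites, against 11.89, 11.89 and 12.26 in FBS (change 0.13, adjusted p = 0.641). In both genes FBS replicate 3 was the highest array.

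Psmd3, a lid subunit, had the most negative change of this class, with 11.01 and 11.14 in ascites, against 11.07, 11.14 and 11.72 in FBS (change -0.23, SE 0.23, adjusted p = 0.594). Without FBS replicate 3 its change was -0.03. The other lid genes Psmd6, Psmd7, Psmd11, Psmd12 and Psmd13 differed by -0.05 to 0.24, with overlapping arrays. The lid genes thus ranged from -0.23 for Psmd3 to 0.73 for Psmd8.

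The activators bind the ends of the core in place of the 19S particle. Psme1 encodes a subunit of PA28, the interferon-inducible activator, and had the most negative change of all 35 genes. It read 11.41 and 10.76 in ascites, against 11.63, 11.65 and 11.27 in FBS (change -0.43, SE 0.25, adjusted p = 0.387). The ascites arrays differed by 0.65, and ascites replicate 2 lay within the FBS range. Psme3, the nuclear activator, read 9.98 and 10.07 in ascites, against 9.38, 9.39 and 10.13 in FBS (change 0.39, SE 0.27, adjusted p = 0.460). FBS replicate 3 exceeded both ascites arrays, and without it the change was 0.64 (adjusted p = 0.0135). Psme4, a nuclear activator linked to histone degradation, differed by 0.14 (SE 0.14, adjusted p = 0.596). Its other probe sets disagreed in direction, at -0.08 (SE 0.15) for a nearly as bright one and 0.30 (SE 0.07) for a dimmer one. Their adjusted p-values were 0.784 and 0.0879 when every probe set was fitted by limma.

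**Figure D3:**
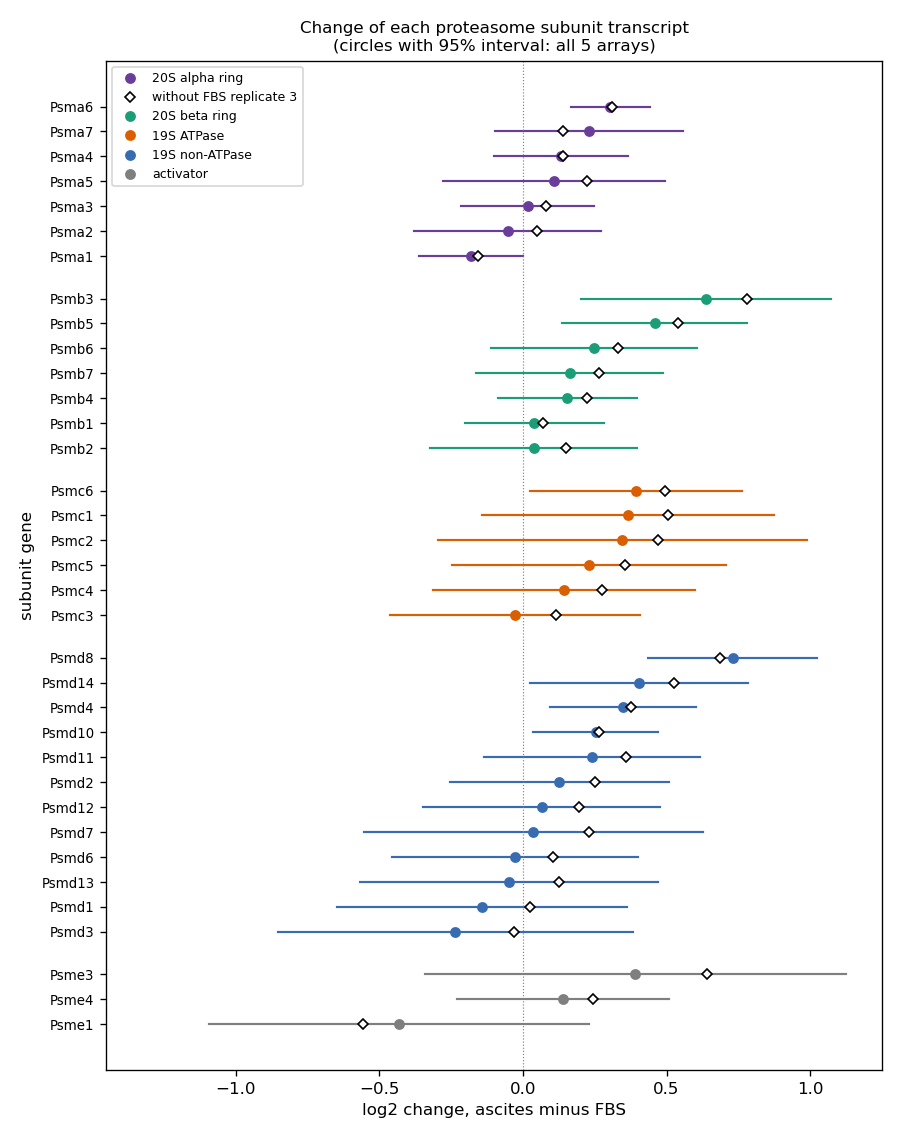
Log2 change, ascites minus FBS (x axis), of the 35 subunit genes (y axis) grouped by class, with circles for all 5 arrays, lines for the 95% interval and open diamonds for the change without FBS replicate 3. The Psmd8 interval (0.43 to 1.03) lies farthest from 0, and most diamonds lie to the right of their circles.

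Further probe sets of the same genes were compared with the chosen ones. Of the 35 genes, 18 had more than 1, adding 32 probe sets. These moved in the same direction as the chosen probe set in 24 cases and in the other in 8, and 0 moved the other way by 0.3 or more. Some were so dim that their direction says little, such as 1 of Psma6 at 3.22 to 3.33 and 1 of Psma1 at 3.03 to 3.72. Among the 8, those of Psmd6 (0.07) and Psme4 (-0.08) were bright.

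Genes that assemble or bind proteasomes were counted in the same way. Of 16 measured genes 10 had a higher and 6 a lower mean in ascites, with a median change of 0.15, and 0 passed by limma, with 4 higher at an unadjusted p below 0.05. Over all genes, 49.7% had a higher mean, 5.28% passed and 11.7% were higher at such a p. Akirin2, which carries proteasomes into the nucleus, came nearest, with 12.35 and 12.38 in ascites, against 11.96 to 12.07 on the 3 FBS arrays (change 0.36, SE 0.06, adjusted p = 0.0506). Psmd5, a chaperone of the base, differed by 0.59 (SE 0.19, adjusted p = 0.166). Pomp, which matures the core, differed by -0.26 (SE 0.12, adjusted p = 0.308).

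Among regulators of proteasome gene transcription, 0 of 13 measured genes passed by limma, where 5.28% of all genes did. At an unadjusted p below 0.05, 3 were higher and 3 lower, where 11.7% and 12.5% of all genes were. The median change of the list was 0.01. Nfe2l1 read 11.71 and 11.88 in ascites, against 11.25, 11.22 and 10.75 in FBS. Both ascites arrays lay above all FBS arrays, and FBS replicate 3 was the lowest, the reverse of its place for most subunits. The change was 0.72 (SE 0.19, adjusted p = 0.110), and 0.56 without FBS replicate 3 (adjusted p = 0.0307). In that setting 4 of the 13 regulators rose and 3 fell, where 9.17% of all genes rose and 10.9% fell. As stated above, p-values without FBS replicate 3 may be too small.

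Nfe2l2, which encodes NRF2, read 12.94 and 12.65 in ascites, against 12.59, 12.65 and 12.61 in FBS (change 0.18, SE 0.10, adjusted p = 0.391). Mafk, a small MAF partner of both factors, read 9.68 and 9.77 in ascites, against 9.18, 9.15 and 8.88 in FBS. It differed by 0.66 (SE 0.12, adjusted p = 0.0575). Other members of the list were lower in ascites. Keap1, which holds NRF2 back, differed by -0.52 (SE 0.11, adjusted p = 0.0791). Ngly1, a glycanase that takes part in activating NRF1, read 8.85 and 8.88 in ascites, against 9.67, 9.72 and 9.15 in FBS (change -0.65, SE 0.20, adjusted p = 0.151). Stat3, a cytokine-activated factor, had the largest difference of the list, with 10.23 and 9.92 in ascites, against 11.69, 11.67 and 10.63 in FBS (change -1.255, SE 0.39, adjusted p = 0.152). For both Ngly1 and Stat3, FBS replicate 3 lay nearest the ascites arrays. Genes of NF-Y differed in direction, with Nfyb at 0.64 (SE 0.12, adjusted p = 0.0624), Nfyc at -0.36 and Nfya at -0.13. The 4 that rose without FBS replicate 3 were Mafk (adjusted p = 0.0165), Nfyb (adjusted p = 0.0182), Mafg (adjusted p = 0.0271) and Nfe2l1. The 3 that fell without FBS replicate 3 were Ngly1 (adjusted p = 0.00871), Stat3 (adjusted p = 0.0143) and Keap1 (adjusted p = 0.0255). These p-values too may be too small.

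Upstream, 7 of 15 listed ubiquitin and conjugating enzyme genes were measured, with a median change of -0.18, and 0 passed by limma, with 1 higher and 1 lower at an unadjusted p below 0.05. At such a p, 11.7% of all genes were higher and 12.5% lower. Ube2k, a ubiquitin-conjugating enzyme, came nearest, with 12.19 and 12.34 in ascites, against 11.78, 11.69 and 11.84 in FBS (change 0.50, SE 0.08, adjusted p = 0.0504). Of 13 measured genes for substrate shuttles and the p97 unfoldase complex, 1 rose and 0 fell, where 2.69% and 2.59% of all genes did. The median change of these genes was 0.18.

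The one that rose was Sqstm1, which encodes p62, a receptor that brings ubiquitinated cargo to autophagy. It read 13.60 and 13.71 in ascites, against 12.16 on each FBS array, and its change of 1.495 (2.82-fold, SE 0.06, adjusted p = 0.0107) exceeded that of each of the 35 proteasome subunit genes. The adjusted p was 0.00737 without FBS replicate 3 and between 0.0798 and 0.139 without any other single array. Vcp, the p97 unfoldase itself, differed by 0.02 (SE 0.05, adjusted p = 0.834).

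**Figure D4:**
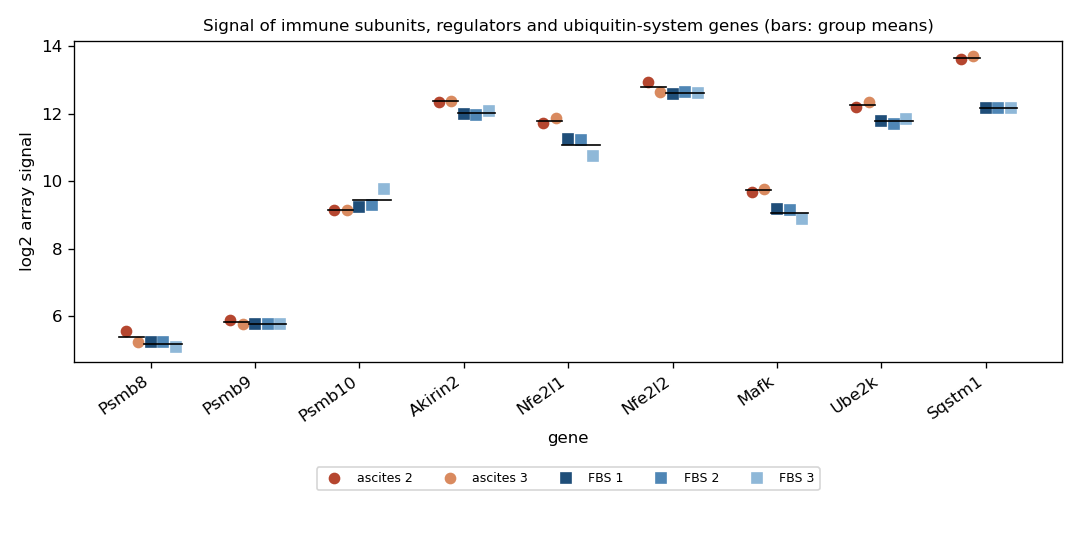
Log2 array signal (y axis) of 9 related genes (x axis) on the 2 ascites arrays (circles) and the 3 FBS arrays (squares), with bars at the group means. Sqstm1 reads 13.60 and 13.71 in ascites against 12.16 in FBS, and Psmb8 and Psmb9 stay below 6 on all 5 arrays.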

How the data were processed

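Total RNA was hybridised to Affymetrix mouse arrays (2 ascites, 3 FBS). The tool named in the submitters' processing notes is Affymetrix Expression Console, and how it summarised probes is not given in the sources used here. Judged from their range, the authors deposited log2 values, with medians of 7.40 to 7.47 per array, which were used without further normalization. They carry no detection calls, and the number of arrays limits the precision.

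Of 22690 probe sets, 64 were controls, 20380 had 1 gene in the platform annotation, 691 several and 1555 none listed. Of the 20380, 20351 matched a RefSeq table (GRCm38.p6) by Entrez identifier, with 0 symbols changed. The probe set with the highest mean represented each of 12393 genes.

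The comparison used limma 3.58.1 under R 4.3.3 (lmFit, eBayes, two-sided, Benjamini-Hochberg adjustment, 3 residual and 1.33 prior degrees of freedom). No set test was run. The fit was tested on simulated data of the same 12393 genes (ascites against FBS). The simulated noise was independent between arrays, with the same spread on all 5 arrays for a given gene. There 61% of 100 genes changed by 1 and 95% of 100 changed by 2 on the log2 scale were recovered, with 9 unchanged genes called. In the real data FBS replicates 1 and 2 were nearly alike and FBS replicate 3 stood apart. The recovery and the false calls may therefore differ on the real arrays. Recovery of changes below 1, which include those of all 35 subunit genes (-0.43 to 0.73), was not tested.

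The subunits and gene lists were chosen with earlier results of these data known. Values per array were to be given for genes past the threshold, for the largest rise and fall in each class, for the immune subunits, Nfe2l1 and Nfe2l2, and for the members of other lists past the threshold or with the smallest p. Other genes were named by role or after their values were seen. Alternatives were another choice of probe set, a filter on dim genes, quantile normalization, an intensity trend, array weights, a replicate block, averaging FBS replicates 1 and 2, and leaving out each array.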

Additional observations from a re-analysis of the deposited data

How the results depend on the processing

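The count of proteasome subunit genes that rose was 1 with all arrays. It was 2 with the mean of all probe sets per gene, 0 with an intensity trend (7 higher at an unadjusted p below 0.05), 8 with array weights, 0 with a replicate block (4) and 0 with FBS replicates 1 and 2 averaged (3). It ran from 0 to 10 when each array was left out. The count that fell was 0 under every alternative run. Over all genes, 654 passed. The number was 703 with the mean of all probe sets and 478 with an intensity trend (2917 at an unadjusted p below 0.05). It was 2612 with array weights, 0 with the replicate block (1891) and 0 with FBS replicates 1 and 2 averaged (2128). Leaving out FBS replicate 1 or FBS replicate 2 gave 0, and leaving out FBS replicate 3 gave 2494. FBS replicate 3 had the lowest array weight, 0.186. The replicate numbers 2 and 3 occur in both groups, but the labels state no pairing, so the numbers were not taken as pairs. The difference between replicates 2 and 3 in ascites correlated at 0.04 over genes with that in FBS. This cannot exclude pairing, since it rests on 1 difference per group and FBS replicate 3 stood apart. With every probe set fitted separately by limma, chosen after seeing the data, 2 of the chosen and further probe sets of these genes passed. They were 1 of Psmd8 (adjusted p = 0.0471) and 1 of Psmc6 (adjusted p = 0.024), where 4.67% of all 20380 probe sets passed. With the mean of all probe sets per gene, the 2 that rose were Psmd8 (adjusted p = 0.0412) and Psmc6 (0.77, adjusted p = 0.0453). The alpha subunit median was 0.11, 0.0244 with the mean of all probe sets, 0.05 with the replicate block, 0.05 with FBS replicates 1 and 2 averaged, and 0.0233 to 0.14 when each array was left out. When each array was left out, the median ran from 0.115 to 0.265 for the beta subunits, 0.0533 to 0.45 for the ATPases, 0.0225 to 0.24 for the non-ATPase subunits, 0.04 to 0.245 for the activators and 0.07 to 0.245 for all 35 genes.

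Psmd8 kept its direction under all 12 alternatives. Its adjusted p was 0.0508 with an intensity trend, 0.267 with the replicate block and 0.18 with FBS replicates 1 and 2 averaged. Of the 35 genes, 25 kept their direction under all 12 alternatives. Under array weights, Psma2 differed by 0.0396, Psmc3 by 0.10, Psmd1 by 0.0088, Psmd6 by 0.10 and Psmd13 by 0.11, each the other way. The replicate block turned Psma3 to -0.01, Psmb2 to -0.005 and Psmd7 to -0.065. Averaging FBS replicates 1 and 2 turned Psma3 to -0.015, Psmb2 to -0.0175 and Psmd7 to -0.06. The mean of all probe sets turned Psmd6 to 0.0217. When each array was left out, the change ranged from -0.12 to 0.05 for Psma2, -0.0233 to 0.08 for Psma3, -0.07 to 0.15 for Psmb1, -0.03 to 0.15 for Psmb2 and -0.10 to 0.12 for Psmc3. It ranged from -0.24 to 0.025 for Psmd1, -0.12 to 0.11 for Psmd6, -0.065 to 0.23 for Psmd7, -0.02 to 0.20 for Psmd12 and -0.14 to 0.13 for Psmd13. The cause of these changes was not tested.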
